A study of Mus musculus with 12 samples.

Results

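The genes described here are 10 markers of the stratified squamous epithelium of the mouse forestomach: Krtdap, Krt4, Krt13, Krt5, Krt14, Krt6a, Sprr3, Sprr1a, Trp63 and Dsg3. They were chosen by name, with earlier results of these data known. Of the 10, 9 have a probe set among the 11807 genes of the array, the exception being Dsg3, which was not analysed here. After a filter on dim genes, 7 of these 9 were tested in stomach. RNA came from whole stomach and whole colon of mice that were knockout (KO), heterozygous (HET) or wild type (WT) for Spdef, an ETS family transcription factor of mucus-producing cells. The mice were 16 weeks old and untreated, with C57BL/6 given as the strain of every sample. The 6 groups were stomach KO, HET and WT and colon KO, HET and WT, with 2 samples each and 12 Affymetrix HT Mouse Genome 430 arrays in all. The labels give neither the deleted part of Spdef nor the sex of the mice, and whether the duplicates of a group are from different mice is not stated, so the p-values reflect the spread of these duplicates, which may be technical.

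The mouse stomach has a proximal forestomach, lined by a keratinized squamous epithelium like that of the oesophagus, and a distal glandular part with parietal, chief and mucous cells. In the squamous layer, basal cells carry the keratin pair Krt5 and Krt14 under the control of the transcription factor Trp63. Cells that leave the basal layer switch to the pair Krt4 and Krt13 and then build a cornified envelope from small proline-rich proteins such as Sprr1a and Sprr3. The colon has a simple columnar lining with no squamous layer. In whole tissue, fewer cells of a type and less RNA per cell cannot be told apart.

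Levels are log2(intensity + 16) after quantile normalization over the 12 arrays, and differences are on the same log2 scale, which understates changes of dim genes. The 40th percentile of all probe sets, a level of 6.53 or an intensity of 76.5, served as the filter level, and testing a gene in stomach or in colon required 2 or more of that tissue's 6 arrays to reach it. Where the mean of a group lay below that level, a difference is also given as "at least" against it. The glandular part was present on every stomach array: the mean level of 6 parietal cell genes was 11.32 to 11.82 in the stomach arrays and 5.99 to 7.18 in the colon arrays. Spdef read 8.86 and 8.63 in stomach KO, 9.06 and 8.94 in stomach HET and 9.19 and 8.96 in stomach WT. In colon it read 9.08 and 9.25 in KO, 10.27 and 9.81 in HET and 10.97 and 8.74 in WT, so that the array labelled colon WT 2 was below both colon KO arrays, against its label. The place of the probe set relative to the deletion is not given. The submitters' processing notes name RMA for the KO pair of stomach and MAS5 for the remaining 4 stomach arrays, so in stomach that note and the KO genotype cannot be told apart. The deposited values of all 12 arrays were linear with a trimmed mean of 500.1, those noted as RMA included, and whether the note is right is not known. The array labelled colon WT 2 also stood apart from the rest of the colon arrays, with a mean correlation across genes of 0.875 against 0.923 to 0.951.

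Krtdap, Krt4, Krt13 and Sprr3, genes of the differentiating layers, were at or near the level of colon in both KO stomachs and well above it in WT stomachs. Krtdap, a small secreted protein of differentiating keratinocytes, read 5.0 and 4.20 in KO stomachs, 12.38 and 8.25 in HET stomachs and 10.54 and 11.12 in WT stomachs. In deposited intensity these were 15.5 and 2.63 in KO, 5186 and 283 in HET and 1463 and 2228 in WT. Both KO arrays lay below all 4 other stomach arrays, and within the range of the 6 colon arrays (4.14 to 5.24, median 4.48). Krt4, the type II keratin of suprabasal cells in internal squamous epithelia, read 4.31 and 4.57 in KO stomachs, 9.52 and 5.71 in HET stomachs and 8.58 and 8.43 in WT stomachs. Its type I partner Krt13 read 5.98 and 5.22 in KO stomachs, 11.13 and 6.79 in HET stomachs and 9.23 and 9.76 in WT stomachs. For both keratins the KO arrays were again the lowest of the 6, HET 1 was the highest, and the WT duplicates differed by at most 0.52. A second, dimmer probe set for Krt13 was above the filter level on HET 1 alone, at 7.26. Its KO minus WT difference was -0.78, and HET 2 (4.16) lay between the KO arrays (4.09 and 4.24). Sprr3, a cornified envelope precursor of internal squamous epithelia, read 4.43 and 5.04 in KO stomachs, 11.54 and 7.62 in HET stomachs and 8.65 and 9.78 in WT stomachs. The order of the arrays was that of Krtdap at both ends, with KO lowest and HET 1 highest. The plot of levels by array shows the gap between KO and WT in these 4 genes and the spread of the HET pair.

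**Figure D1:**
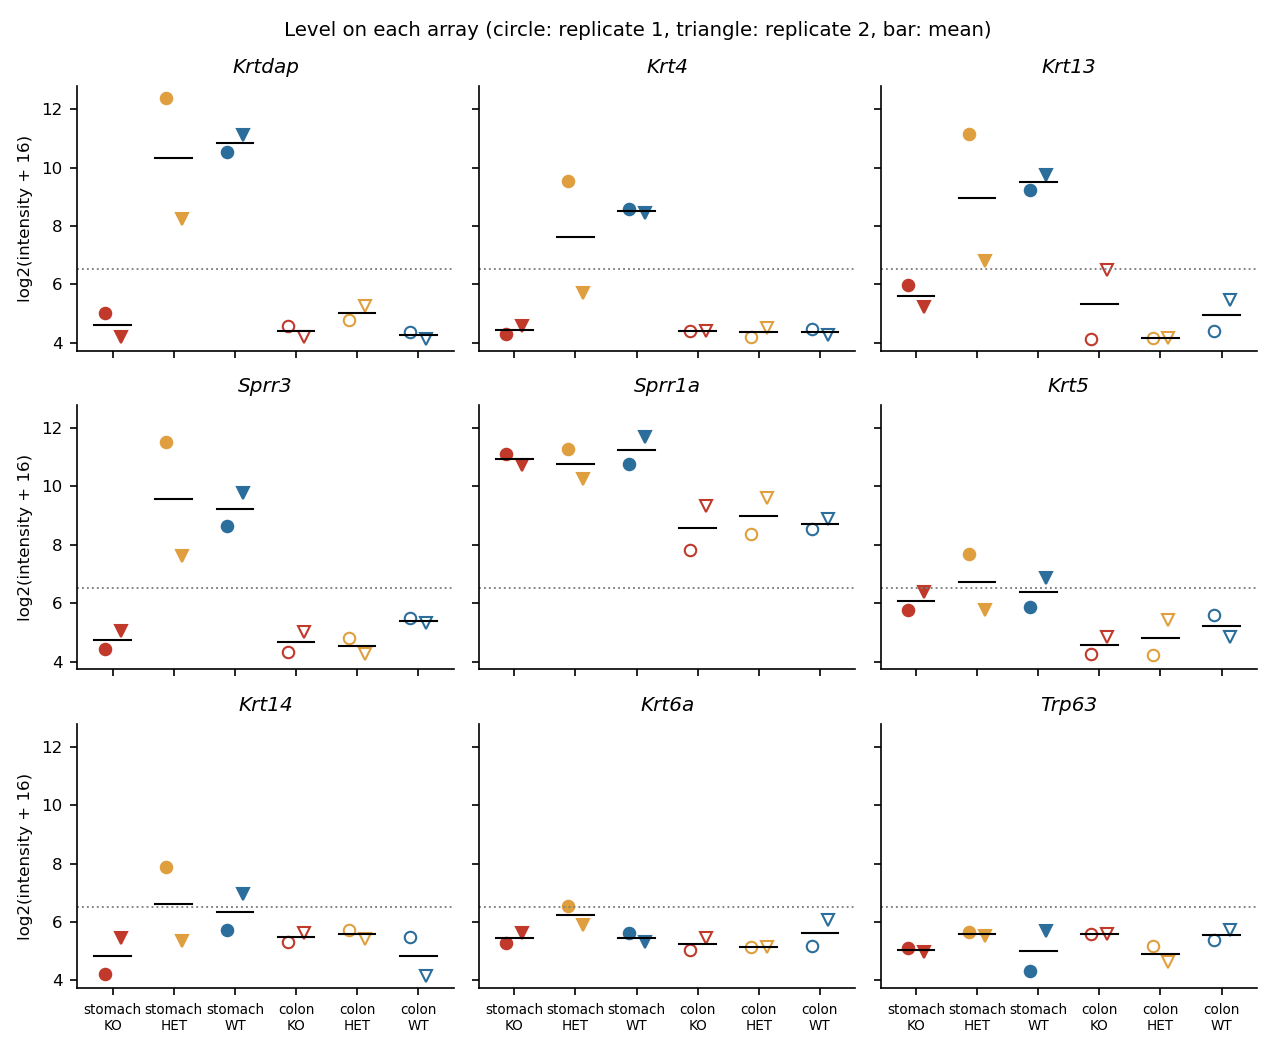
Level of each of the 9 genes, as log2(intensity + 16), on the 12 arrays by tissue and genotype (filled: stomach, open: colon, bars: group means, dotted line: the filter level of 6.53). Krtdap, Krt4, Krt13 and Sprr3 are below the line in both KO stomachs and above it in both WT stomachs, while Sprr1a is above it on all 12 arrays.

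Because Krtdap and Sprr3 were low in KO stomachs while the envelope gene Sprr1a was not, the promoter windows of these 3 genes are shown together with that of Krt13. They are from RefSeq on GRCm38.p6, 250 bases before to 50 bases after the gene's start, written along the gene's strand. Of the 9 genes, 6 matched the promoter table, Krt13 with 2 starts, giving 7 windows. Capitals mark TATAAA (the TATA box), TGANTCA (the AP-1 site) and CCGGAT (an ETS site with the GGAT core that Spdef is known to prefer), each searched on both strands.
Krtdap, chr7:30787655-30787954, plus strand: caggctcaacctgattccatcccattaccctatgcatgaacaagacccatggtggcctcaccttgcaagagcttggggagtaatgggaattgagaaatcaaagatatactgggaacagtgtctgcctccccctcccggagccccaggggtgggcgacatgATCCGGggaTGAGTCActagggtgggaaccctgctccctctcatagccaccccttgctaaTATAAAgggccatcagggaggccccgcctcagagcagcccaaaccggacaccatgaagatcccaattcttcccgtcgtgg
Krt13, chr11:100121517-100121816, minus strand: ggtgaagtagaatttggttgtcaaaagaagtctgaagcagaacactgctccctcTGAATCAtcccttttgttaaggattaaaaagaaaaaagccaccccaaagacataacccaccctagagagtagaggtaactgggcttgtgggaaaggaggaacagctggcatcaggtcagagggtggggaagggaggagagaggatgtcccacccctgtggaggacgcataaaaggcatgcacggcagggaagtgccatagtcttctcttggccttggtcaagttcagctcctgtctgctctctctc
Sprr3, chr3:92458671-92458970, minus strand: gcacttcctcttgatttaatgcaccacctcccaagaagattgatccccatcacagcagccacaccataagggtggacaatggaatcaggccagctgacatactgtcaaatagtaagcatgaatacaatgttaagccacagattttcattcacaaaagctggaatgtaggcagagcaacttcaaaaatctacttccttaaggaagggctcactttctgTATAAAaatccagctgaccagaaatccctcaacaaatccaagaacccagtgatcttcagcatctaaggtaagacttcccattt
Sprr1a, chr3:92485832-92486131, minus strand: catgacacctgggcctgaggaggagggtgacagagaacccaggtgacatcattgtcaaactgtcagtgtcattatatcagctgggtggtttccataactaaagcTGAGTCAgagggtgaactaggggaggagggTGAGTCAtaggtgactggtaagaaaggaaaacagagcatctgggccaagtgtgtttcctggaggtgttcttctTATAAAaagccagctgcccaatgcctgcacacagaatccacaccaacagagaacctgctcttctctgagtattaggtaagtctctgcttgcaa
TGANTCA was in 4 of the 7 windows (Krtdap, both starts of Krt13 and Sprr1a) and in 7.81% of all 32851 promoter windows of 300 bases. TATAAA was in 3 of the 7 (Krtdap, Sprr3 and Sprr1a) and in 13.6% of all. CCGGAT was in 2 of the 7 (Krtdap, as its reverse complement, and the other start of Krt13) and in 6.04% of all. No 2 of these motifs overlap in the windows shown. These matches describe letters in a window and not binding. In this set, the windows of Sprr1a and Krtdap both hold matches to the TATA box and the AP-1 site. The window of Krtdap also holds a match to CCGGAT, which those of Sprr1a and Sprr3 do not. Whether these motifs bear on the levels in KO stomachs was not tested.

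In the KO against WT comparison of stomach, none of the 7 tested genes passed the threshold in limma, where 0.0127% of the 7858 genes tested were past it in either direction. All 7 differences were negative, with a median of -3.89, against 0.01 over all genes, or -1.97 with dim means at the filter level. Apart from Sprr1a, these genes reached the filter level only in HET and WT arrays, so a lower KO value was partly built into being tested and the counts are descriptive. Krtdap had the largest difference at -6.23 (SE 1.02, adjusted p = 0.407), or at least 19.7-fold down in KO against WT. For Sprr3 it was -4.48 (SE 1.0, adjusted p = 0.602), a ratio of at least 6.43, and for Krt4 -4.06 (SE 0.94, adjusted p = 0.602), a ratio of at least 3.92. Krt13 differed by -3.89 (SE 1.21, adjusted p = 0.9995), or at least 7.80-fold. These 4 had an unadjusted p under 0.05, as did 1.62% of all genes on the lower side. In the probe sets used, the KO arrays lay below both WT arrays without overlap for 5 of the 7, the same 4 and Krt14, against 16.7% of all genes.

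The pooled spread behind these tests held the gap between the 2 HET arrays. It also held stomach KO and the colon groups, whose means were below the filter level for Krtdap, Krt4, Krt13 and Sprr3. For Krt4 the SD was 0.18 in stomach KO and 0.0087, 0.21 and 0.16 in colon KO, HET and WT. It was 2.69 in stomach HET and 0.11 in stomach WT. With HET arrays left out, here and below, the p-values rest more on the dim groups and less on the spread of expressed squamous genes. With HET 1 left out of the fit, Krtdap (adjusted p = 0.00136), Krt4 (adjusted p = 0.00791) and Sprr3 (adjusted p = 0.0129) were past the threshold for KO against WT in limma, at differences of -6.23, -4.06 and -4.49. With HET 2 left out they were past it at adjusted p-values of 0.000901, 0.00451 and 0.00872, and with both left out, a choice made after the gap was seen, at 0.00169, 0.00751 and 0.0129. Krt13 was not past it in any of these 3 fits (adjusted p from 0.259 to 0.292), and the number of all genes called was 9 without HET 1, 9 without HET 2 and 9 without both.

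Against HET stomachs the KO differences were -5.72 for Krtdap, -4.85 for Sprr3, -3.36 for Krt13 and -3.18 for Krt4, with adjusted p-values from 0.765 to 0.9999, and 0.0127% of all genes passed. Without HET 2, which leaves HET 1 as the only HET array, Krtdap (-7.78), Sprr3 (-6.80) and Krt4 (-5.08) passed (adjusted p from 0.000780 to 0.00196). Without HET 1 they were at -3.65, -2.89 and -1.28 and did not pass. Against the mean of HET and WT, Krtdap differed by -5.97 (SE 0.88, adjusted p = 0.215), or at least 16.5-fold, and passed without HET 1 (-4.94, adjusted p = 0.00505) and without HET 2 (-7.01, adjusted p = 0.000207). Without HET 2, Krt4 (-4.57, adjusted p = 0.000552), Sprr3 (-5.65, adjusted p = 0.00102) and Krt13 (-4.72, adjusted p = 0.0389) passed this comparison too, while without HET 1 they were at -2.67 (adjusted p = 0.0610), -3.69 (adjusted p = 0.0528) and -2.54 (adjusted p = 0.99999) and did not pass. Both KO arrays were below all 4 HET and WT arrays for Krtdap, Krt4, Krt13 and Sprr3, a pattern that 6.18% of all tested genes showed. These comparisons share the KO arrays.

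**Figure D2:**
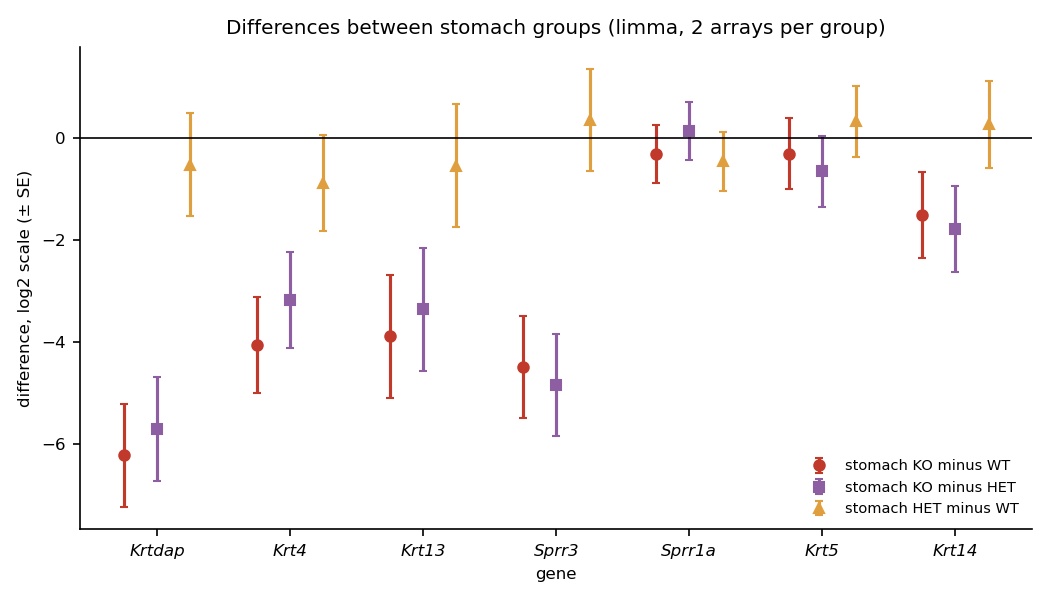
Difference between stomach groups for the 7 tested genes on the log2 scale, with the standard error from limma (2 arrays per group). The 4 genes Krtdap, Krt4, Krt13 and Sprr3 lie between -3.18 and -6.23 for KO against WT and KO against HET, while Sprr1a and Krt5 lie within 1 SE of 0 for each comparison with KO.

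Sprr1a, the other small proline-rich envelope precursor of the set, had a different pattern. It read 11.12 and 10.74 in KO stomachs, 11.29 and 10.27 in HET stomachs and 10.77 and 11.69 in WT stomachs. The 3 genotypes overlapped, and the KO minus WT difference was -0.30 (SE 0.58, adjusted p = 0.9995), which turned to 0.15 without WT 2. It was also above the filter level on every colon array, at 7.82 to 9.60 with a median of 8.72. Sprr1a is known to be made by stressed and injured cells of other tissues as well, and its signal in these arrays was not limited to the tissue with a squamous lining.

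The genes of the basal layer were dim. Krt5 read 5.77 and 6.37 in KO stomachs, 7.67 and 5.75 in HET stomachs and 5.87 and 6.87 in WT stomachs. The groups overlapped, and the KO minus WT difference was -0.30 (SE 0.70, adjusted p = 0.9995), which became 0.0018 without KO 1. Krt14, its type I partner, read 4.22 and 5.46 in KO stomachs, 7.88 and 5.34 in HET stomachs and 5.73 and 6.95 in WT stomachs. Its KO arrays lay below both WT arrays but not below HET 2, and its difference of -1.50 (SE 0.85, adjusted p = 0.9995) did not pass. Its second probe set gave -0.90, and there the groups overlapped, with WT 1 (4.45) between the KO arrays (4.62 and 4.43). The means of both groups were below the filter level for Krt5 and for Krt14, so no fold is given. Trp63, the transcription factor that maintains the basal layer, was below the filter level on all 12 arrays in the probe set used (5.71 at most) and in its other 2 probe sets (6.05 and 4.36 at most in stomach). Krt6a, a keratin of activated and suprabasal keratinocytes, reached the filter level on a single stomach array, HET 1, at 6.56. Another probe set for it read 7.45 on that array and below the filter level on the other stomach arrays, and the last one stayed below it throughout. Trp63 and Krt6a were therefore not tested, and a signal below the filter level does not show that a transcript was absent.

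Within the HET pair the squamous genes were far apart. HET 1 exceeded HET 2 by 4.35 for Krt13, 4.13 for Krtdap, 3.91 for Sprr3, 3.81 for Krt4, 2.55 for Krt14, 1.92 for Krt5 and 1.02 for Sprr1a. The median gap of the 7 genes was 3.81 in HET stomachs, 0.61 in KO stomachs and 0.91 in WT stomachs, against 0.16, 0.21 and 0.17 over all 7858 genes. All 7 were at least 1 higher on HET 1 than on HET 2, as were 1.55% of all genes. Krt5 and Krt14 reached the filter level only on HET 1 and WT 2. For both genes, higher values on those arrays were thus partly built into being tested, and the counts are descriptive. In the probe sets used for the untested genes, HET 1 exceeded HET 2 by 0.66 for Krt6a and 0.14 for Trp63. HET 1 was the highest of the 6 stomach arrays for 6 of the 7, the exception being Sprr1a, and for 12.7% of all genes. The pooled SD within stomach groups was between 0.58 (Sprr1a) and 1.81 (Krt13), above that of 97.4% to 99.8% of all genes. In WT stomachs, WT 2 exceeded WT 1 for 6 of the 7, by up to 1.22 for Krt14, with Krt4 the exception. The HET minus WT differences of the 7 ran from -0.88 to 0.36, with a median of -0.45. None passed in limma or had an unadjusted p under 0.05, and 0% of all genes passed. That median was -2.58 without HET 1, over 5 tested genes, and 1.54 without HET 2, so its direction rested on which HET array was used. For Krtdap, Krt4 and Krt13 the group means were in the order KO, HET, WT from low to high, for Sprr3 in the order KO, WT, HET, and HET and WT did not differ beyond their spread in any of them.

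**Figure D3:**
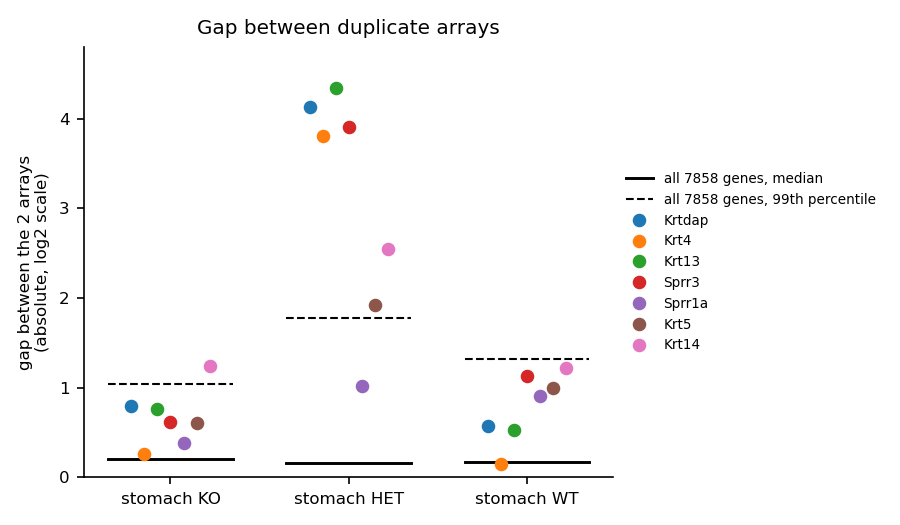
Absolute gap on the log2 scale between the 2 arrays of each stomach group, for the 7 tested genes (points) and for all 7858 tested genes (solid line: median, dashed line: 99th percentile). In HET stomachs 6 of the 7 genes are above the 99th percentile of 1.77.

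In colon all of these genes but Sprr1a were dim. Krtdap, Krt4, Krt5, Krt14, Krt6a, Sprr3 and Trp63 were below the filter level on all 6 colon arrays, and Krt13 too, with its highest colon value of 6.47 in KO 2. Only Sprr1a was tested there, with KO and WT colon apart by -0.15 (SE 0.58, adjusted p = 0.936), where 0.0505% of 7913 genes passed. Without the array labelled colon WT 2 it was 0.03 (adjusted p = 0.998). The test of the difference between the tissues in the KO effect found none of the 7 past the threshold (adjusted p from 0.888 to 0.975), where 0.0238% of 8393 genes passed. Its value for Krtdap was -6.36 (SE 1.44), which passed without stomach HET 1 and without stomach HET 2. Without the array labelled colon WT 2 the Krtdap value was -6.25 and did not pass. For Krt4 the test gave -4.09 (SE 1.33), which passed without stomach HET 2 but not without stomach HET 1. Krt13, Krt14, Krt5, Sprr1a and Sprr3 passed this test with no array left out and with none of the arrays left out in turn.

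The genes were also compared between stomach and colon within each genotype. Apart from Sprr1a, the 7 had no colon array at the filter level and were tested through their stomach arrays, so a higher stomach value was partly built in and the counts are descriptive. The untested Trp63 (-0.55) and Krt6a (-0.15) were not higher in WT stomachs than in WT colons. In WT, all 7 differences were positive and 5 of the 7 were called higher in stomach than in colon, where 16.4% of 8393 genes were called higher. Krtdap was higher by 6.58 (SE 1.02, adjusted p = 0.00155), at least 19.7-fold, and Krt13 by 4.55 (SE 1.21, adjusted p = 0.0217), at least 7.80-fold. Krt4 was higher by 4.13 (SE 0.94, adjusted p = 0.0111), Sprr3 by 3.82 (SE 1.0, adjusted p = 0.0207) and Sprr1a by 2.51 (SE 0.58, adjusted p = 0.0113). Krt14 (1.51) and Krt5 (1.16) did not pass. Without colon WT 1, Krt13 was at 4.04 and was not past the threshold. Without the array labelled colon WT 2, Krtdap, Krt4, Krt13 and Sprr1a were still past the threshold and Sprr3 was at 3.74 (adjusted p = 0.0504). Single stomach arrays weighed more, with 2 of 7 (Krtdap and Sprr1a) called without stomach WT 1 and 1 of the 5 then tested (Krtdap) without stomach WT 2. In HET, 4 of the 7 were called higher in stomach (12% of all genes), namely Krtdap, Krt4, Krt13 and Sprr3. In KO, Sprr1a was the only one called higher in stomach (12.4% of all genes), by 2.36 (SE 0.58, adjusted p = 0.0172), and it was not called without stomach KO 1, stomach KO 2 or colon KO 1. Krt5 was 1.51 higher in KO stomachs than in KO colons and did not pass (adjusted p = 0.156).

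Other genes of squamous epithelium were taken from lists by role, also chosen with earlier results of these data known. None of their tested members passed in KO against WT stomach. The mean levels of the lists of keratinizing cells were lowest in KO and highest in HET 1, as for Krtdap. Some of their tested genes reached the filter level on no KO array, so that a lower KO value was partly built in. These were 2 of 5 in the keratin list, 8 of 13 in the envelope list and 6 of 13 in the surface list, and the medians of the rest were -0.26, 0.04 and -0.15. Of 11 other stratified keratins, 5 were tested, with all 5 differences negative and a median of -1.94. They included Krt1 (5.53 and 5.65 in KO, 11.07 and 7.37 in HET, 6.57 and 9.62 in WT) and Krt10 (6.77 and 7.35 in KO, 11.51 and 7.93 in HET, 8.06 and 9.94 in WT), the pair of keratinizing epithelia, and Krt6b (-3.01), whose probe set may also read its close paralogue Krt6a. Of 31 names in the cornified envelope list 13 were tested, with 9 differences negative, 4 positive and a median of -1.63. Its largest were Rptn (-4.77), a calcium-binding envelope protein of the same chromosome 3 gene cluster as the Sprr genes, then Dmkn (-3.88), which lies beside Krtdap on chromosome 7, and Lce3c (-3.41), a late envelope protein. Of 25 other surface and secreted genes 13 were tested, 11 negative and 2 positive with a median of -0.60, led by the metallothionein Mt4 (-4.49), the protease inhibitor Serpinb3a (-2.92) and the galectin Lgals7 (-2.79).

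The lists of junction, basal layer and transcription factor genes did not have this pattern. In them, all but 1 of the tested genes reached the filter level on a KO array. Of 15 desmosome and junction genes 5 were tested, 4 of them positive, with a median of 0.19. Desmoplakin (Dsp, 0.31) and plakoglobin (Jup, 0.22), plaque proteins of desmosomes in all epithelia, were among the positive ones, and the gap junction gene Gjb2 was at -1.52. Of 12 genes of the basal layer and hemidesmosome 8 were tested, 7 of them positive with a median of 0.17, including the integrin Itgb4 (0.79), the anchoring collagen Col7a1 (0.49) and the hyaluronan receptor Cd44 (0.44). Of 16 transcription factors 8 were tested, 5 of them negative and 3 positive with a median of -0.04, the positive ones being Klf5 (0.68), Ehf (0.50) and Klf4 (0.31). The mean of these 3 lists moved by at most 0.65 between any stomach arrays, against 4.37 for the 7 genes. In WT, their median stomach minus colon differences were -0.36 (junction), -0.25 (basal layer) and 0.43 (transcription factors). Those of the keratin, envelope and surface lists were 2.82, 2.17 and 1.38. Genes of these 3 lists were thus also read in colon, which has no squamous layer. Whether their squamous part differed in KO stomachs cannot be told from these values.

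**Figure D4:**
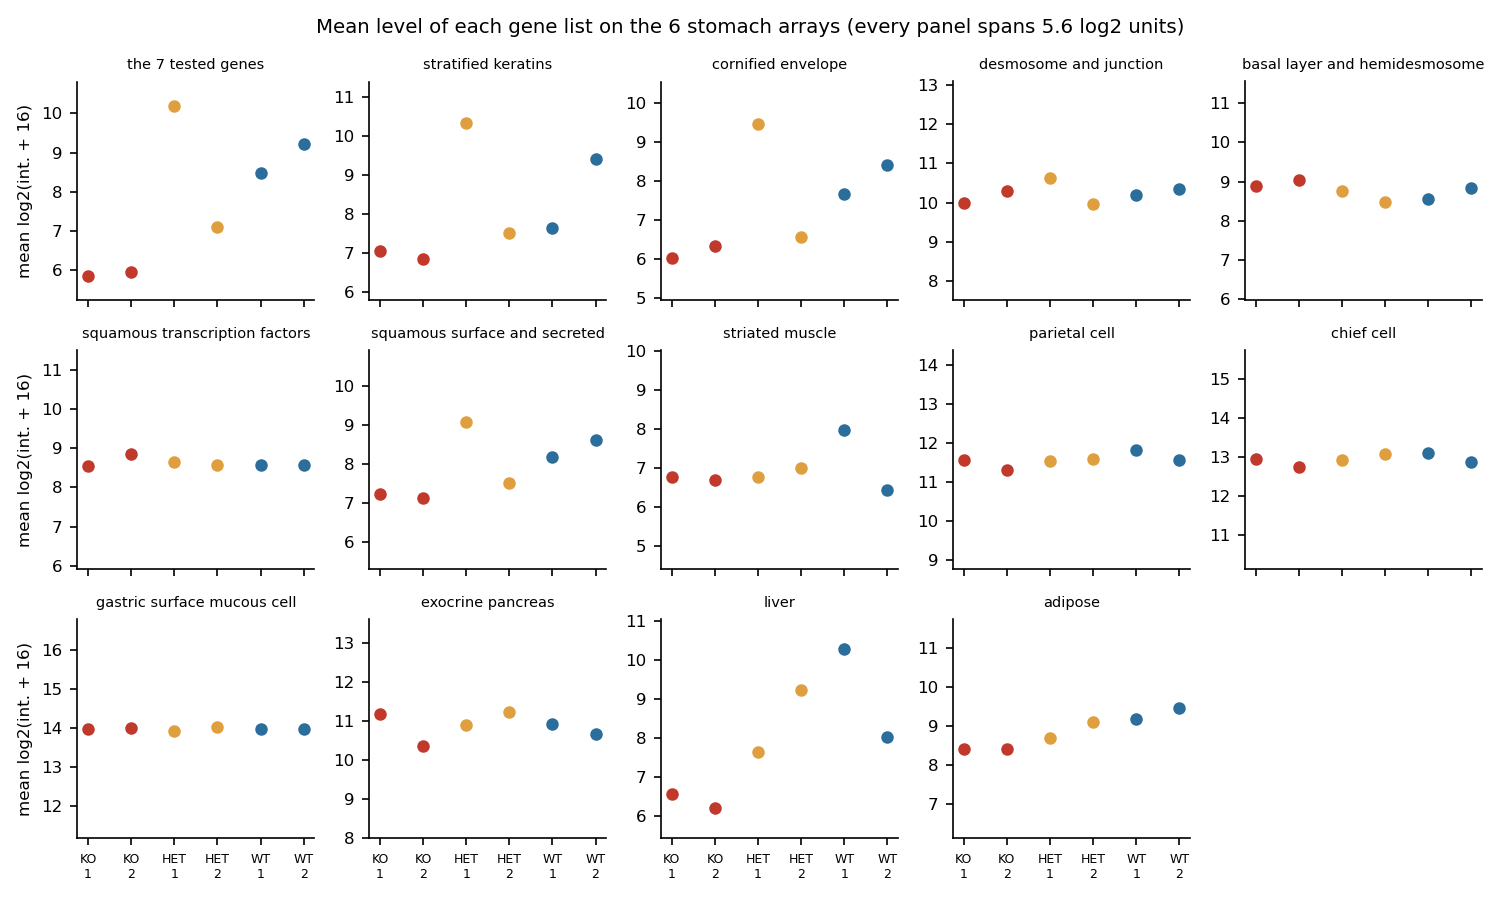
Mean log2(intensity + 16) of the tested genes of each list on the 6 stomach arrays, each panel spanning the same height. The 7 tested genes and the keratin, envelope and surface lists are lowest in both KO arrays and highest in HET 1, the 3 glandular lists differ by at most 0.50 between arrays, and the liver list is highest in WT 1.

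The 10 genes whose stomach profile was nearest to the mean profile of the 7 genes were Lce1b, Calml3, Lce1f, Asprv1, Calm4, Lce1i, Lce1a1, Lce1a2, Serpinb3a and Lgals7. Nearness was the root mean square difference of centred levels over the 6 stomach arrays, 0.32 for Lce1b and 0.58 for Lgals7 against a median of 1.65 over all other genes. The late cornified envelope genes Lce1a1, Lce1a2, Lce1b, Lce1f and Lce1i lie on chromosome 3, as do Sprr1a and Sprr3, and are close enough in sequence that their probe sets may read one another. Calml3 and Calm4, calmodulin-like proteins of stratified epithelium, lie on chromosome 13. Asprv1, the protease that processes filaggrin in skin, read 5.73 and 5.41 in KO stomachs, 10.89 and 6.82 in HET stomachs and 8.69 and 9.30 in WT stomachs. Its arrays had the order seen for Krtdap. Among the 7 genes themselves the distance from their mean was 0.56 for Krt4, 0.59 for Krt13, 0.72 for Krt14, 0.93 for Sprr3, 1.21 for Krt5, 1.46 for Sprr1a and 1.52 for Krtdap, which had the widest range. All 10 had negative KO minus WT differences, from -2.0 to -3.43, which are part of the profile that chose them, and none passed.

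**Figure D5:**
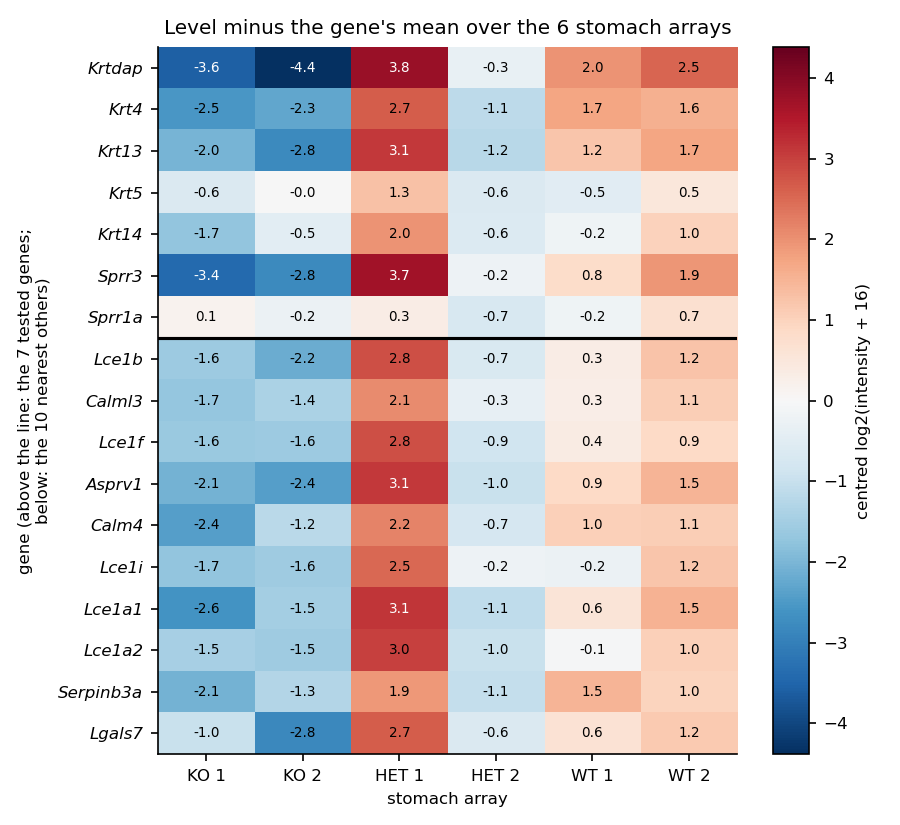
Level of each gene minus its own mean over the 6 stomach arrays, for the 7 tested genes and the 10 genes nearest to their mean profile. Blue cells are below and red cells above the gene's mean, with the value printed in log2 units. HET 1 is the highest column in every row but that of Sprr1a, and the KO columns are the lowest in every row but those of Krt5, Krt14 and Sprr1a.

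Lists of other tissues were set beside these values on the same arrays. The mean of 7 liver genes was 6.57 and 6.20 in KO stomachs, 7.64 and 9.24 in HET stomachs and 10.26 and 8.02 in WT stomachs, led by Mup3 (-4.50), Alb (-4.0) and Serpina1b (-3.68), none past the threshold. All 7 liver differences between KO and WT were negative, with a median of -2.81. Of these genes, 4 reached the filter level on no KO array, and the median of the other 3 was -2.25. Liver genes were thus also lowest in KO. Their highest arrays were WT 1 and HET 2, where most of the squamous genes were lower than on the other array of the group. The mean of 4 adipose genes was 8.41 and 8.40 in KO stomachs, 8.69 and 9.10 in HET stomachs and 9.17 and 9.45 in WT stomachs. The mean of 4 exocrine pancreas genes was 11.18 and 10.36 in KO stomachs, 10.89 and 11.23 in HET stomachs and 10.92 and 10.66 in WT stomachs, with the groups overlapping. Striated muscle genes, as found in the wall of the mouse oesophagus, had a mean of 7.99 in WT 1 and of 6.44 to 7.02 on the other 5 stomach arrays. The means of the glandular lists ran over the 6 stomach arrays from 12.73 to 13.11 for 5 chief cell genes and from 13.94 to 14.03 for 7 surface mucous cell genes. Single glandular genes differed more. The chief cell gene Pga5 read 12.18 and 11.68 in KO stomachs, 13.14 and 12.82 in HET stomachs and 12.85 and 12.44 in WT stomachs. Its KO minus WT difference of -0.72 did not pass. All 6 parietal cell differences between KO and WT were negative, with a median of -0.23. The part of the processing note, of liver or adipose RNA and of how much forestomach each sample held in the squamous difference was not tested.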

How the data were processed

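Deposited values were a linear intensity per probe set from Affymetrix HT Mouse Genome 430 arrays. Per the submitters' processing notes, 9 arrays carry MAS5 and 3 carry RMA (both stomach KO arrays and colon WT 1), with no version or build. Every array had a trimmed mean of 500.1, and no log scale was present. Of 22716 probe sets, 90 controls were left out, 18003 had 1 gene, 287 several and 4336 none. Each gene was represented by its probe set with the highest mean.

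Intensities were taken as log2(intensity + 16) and quantile normalized. The model (limma 3.58.1, R 4.3.3) held 1 mean per group over all 12 arrays, with an intensity trend, 6 residual and 3.29 prior degrees of freedom. Benjamini-Hochberg adjustment ran over all genes tested in a comparison, with a threshold of 0.05. With 2 arrays a group an exact permutation test cannot go below 0.333. Array number limits the precision. The fit was tested on simulated data.

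Members and lists were chosen with earlier results of these data known. Named genes are the members, up to 3 genes of each list with the largest stomach KO minus WT difference and the 10 nearest profiles. Figures used Python 3.11.15 and matplotlib 3.10.9.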

Additional observations from a re-analysis of the deposited data

How the results depend on the processing

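The alternatives were no quantile normalization, offsets of 1 and 64, no filter, no intensity trend, every probe set, the replicate block, stomach fitted alone, each array left out in turn and, chosen after seeing the data, both stomach HET arrays left out. Of 681 values for single genes, 638 kept their direction and their side of the threshold, 21 gained a call, 9 lost one and 13 turned direction. The count of all genes past the threshold for stomach KO minus WT was 0 with no quantile normalization, with an offset of 64 and with the replicate block, 7 with stomach alone and 9 without both HET arrays, against 1 as reported. For KO minus HET it was 0 in place of 1 with no quantile normalization, offset 64, no trend and the block. It was 3 in place of 1 for KO minus the mean of WT and HET with stomach alone, 1 and 7 in place of 4 for colon KO minus WT with an offset of 1 and with every probe set, and 0 in place of 2 for the difference between tissues with an offset of 1. The median of the 7 genes with an offset of 64 was -2.56 for KO minus WT and -2.28 for KO minus the mean of WT and HET. Without both HET arrays, 3 of the 5 genes still tested passed for KO minus WT and 1 for the difference between tissues.

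With 1 array left out, the array left alone in its group is assumed to vary like the others. The count of all genes then ran from 0 to 9 for stomach KO minus WT, 0 to 18 for KO minus HET, 0 to 18 for KO minus the mean of WT and HET, 3 to 963 for colon KO minus WT (963 without colon WT 1), 0 to 391 for the difference between tissues, and 1062 to 2671 in KO, 950 to 2597 in HET and 1105 to 2943 in WT for stomach minus colon. The squamous genes past the threshold ran from 0 to 3, 0 to 3, 0 to 4 and 0 to 2 in the KO minus WT, KO minus HET, KO minus mean and between-tissue comparisons, and from 0 to 1 in KO, 1 to 5 in HET and 1 to 5 in WT for stomach minus colon. Their median ran from -4.06 to -3.51 for KO minus WT, -5.08 to -1.28 for KO minus HET, -4.57 to -2.67 for KO minus the mean of WT and HET and -2.58 to 1.54 for HET minus WT. The values -4.06, -1.28, -2.67 and -2.58 were those without stomach HET 1. They cover only the 5 genes then tested, so part of the shift is a change of genes. Directions turned for Krt5 in KO minus WT (-0.80 to 0.0018) and between tissues (-0.15 to 0.72), and for Sprr1a in KO minus WT (-0.76 to 0.15), KO minus HET (-0.36 to 0.66), KO minus the mean (-0.33 to 0.18) and between tissues (-0.90 to 0.59). The cause was not tested.

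The replicate numbers are shared by the groups without a stated pairing. Deviations from the group means of same-numbered stomach arrays correlated at 0.00 (KO and HET), 0.04 (KO and WT) and -0.37 (HET and WT) across 7858 genes, which are not independent. The block changed no call of a squamous gene. Signal over background limited Krt6a and Trp63, which were not tested, and Krt5 and Krt14, whose KO and WT stomach means were below the filter level.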
